A study of Mus musculus with 4 samples.

Results

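The comparison described here sets 1 library of nuclei from the aorta of mice that received high-fat food and methoxazolamide at the same time (MTZ-simultaneous) against 1 library from mice that received methoxazolamide only once atherosclerosis had been established by high-fat food (MTZ-after). All mice of the series carried a CA1 knockin on an ApoE-/- background, so both libraries share the genotype and the high-fat food and differ by the timing of the compound. The labels give no number of animals, age, sex, dose, duration or hour of tissue collection, and no promoter for the knockin. Barcodes with at least 300 detected genes and at most 10% of their UMIs (unique molecular identifiers) from mitochondrial genes were taken. That rule held for 28093 barcodes of MTZ-after and 19261 of MTZ-simultaneous, 47354 of the 107709 that passed in all 4 libraries. After doublet removal 25992 and 17848 nuclei remained. With 1 library a side there is no replicate and no test between the treatments, and every interval below covers counting error only. The mice behind a library and the compound's timing cannot be told apart.

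ApoE-/- mice clear lipoproteins poorly and form aortic plaques, most quickly on high-fat food. In a plaque, macrophages take up lipid and become foam cells, smooth muscle cells can lose contractile proteins and take on matrix-producing states, and the endothelium can express adhesion molecules. Carbonic anhydrases interconvert carbon dioxide and bicarbonate. CA1 (mouse gene Car1) is the abundant cytosolic form of red blood cells. The aorta also keeps a circadian clock, in which Arntl (BMAL1) with Clock or Npas2 drives Per and Cry genes that repress it.

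The 2 libraries held 31517272 UMIs (MTZ-after) and 37962370 UMIs (MTZ-simultaneous), with a median of 828 and 1417 UMIs per passing barcode. They shared 173 barcodes, 0.615% and 0.895% of each. Cells were grouped without batch integration into 23 clusters over all 4 libraries, of which 20 took a name from marker genes. Every name is "X-like" by markers only, and the suffix is dropped from here on. Apoe was at 10.8 CPM (counts scaled to the summed UMIs of the class or library) in MTZ-after and 10.9 CPM in MTZ-simultaneous over all nuclei, and at 9.56 and 8.89 CPM in the untreated and high-fat libraries. The libraries differed in what lay around the aorta. Classes of surrounding tissue made up 39.5% of MTZ-after nuclei and 30.3% of MTZ-simultaneous nuclei.

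The shares of the 4 vessel wall classes differed less between the 2 libraries than those of B cells and of several classes from outside the wall. Smooth muscle was 9.65% of MTZ-after nuclei and 11.1% of MTZ-simultaneous nuclei, a ratio of 1.15 (95% interval 1.09 to 1.22). Fibroblasts were 8.24% and 10.9%, a ratio of 1.32 (1.24 to 1.40). Endothelial nuclei were 18.8% and 16.9%, a ratio of 0.900 (0.860 to 0.942). Macrophages were 7.44% and 8.34%, a ratio of 1.12 (1.05 to 1.20), with 43.6% in the high-fat library and 6.56% in the untreated one. Once surrounding tissue was left out of the total, the ratios were 1.00, 1.15, 0.781 and 0.973 in the same order. Over the other groupings and totals the ratios lay between 0.998 and 1.69 for smooth muscle, 1.13 and 1.79 for fibroblasts, 0.781 and 2.94 for endothelial nuclei and 0.973 and 2.38 for macrophages. The direction was therefore not settled for smooth muscle, endothelial nuclei and macrophages, nor the size for any of the 4. T or NK nuclei had a ratio of 1.36 (1.18 to 1.57). B cells were 0.893% of MTZ-after and 3.82% of MTZ-simultaneous, a ratio of 4.28 (3.68 to 4.99).

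The largest differences in share were in tissue that dissection can bring along. Adrenal cortex was 16.2% of MTZ-after nuclei (4199 nuclei) and 0.0112% of MTZ-simultaneous nuclei (2 nuclei). Chromaffin nuclei were 5.93% and 0.123%, and hepatocytes 3.20% and 0.275%. Mesothelial nuclei, the lining of body cavities, went the other way with 2.46% and 20%, a ratio of 8.11 (7.45 to 8.83). Schwann nuclei were 1.61% and 0.235%. Brown adipocytes were closer, with 11.4% and 9.78%. A cluster led by Vmn2r26, Padi4 and Alox15 that took no name was 0.689% and 4.09%. How each aorta was dissected is not in the labels, and its part in these shares was not tested.

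**Figure D1:**
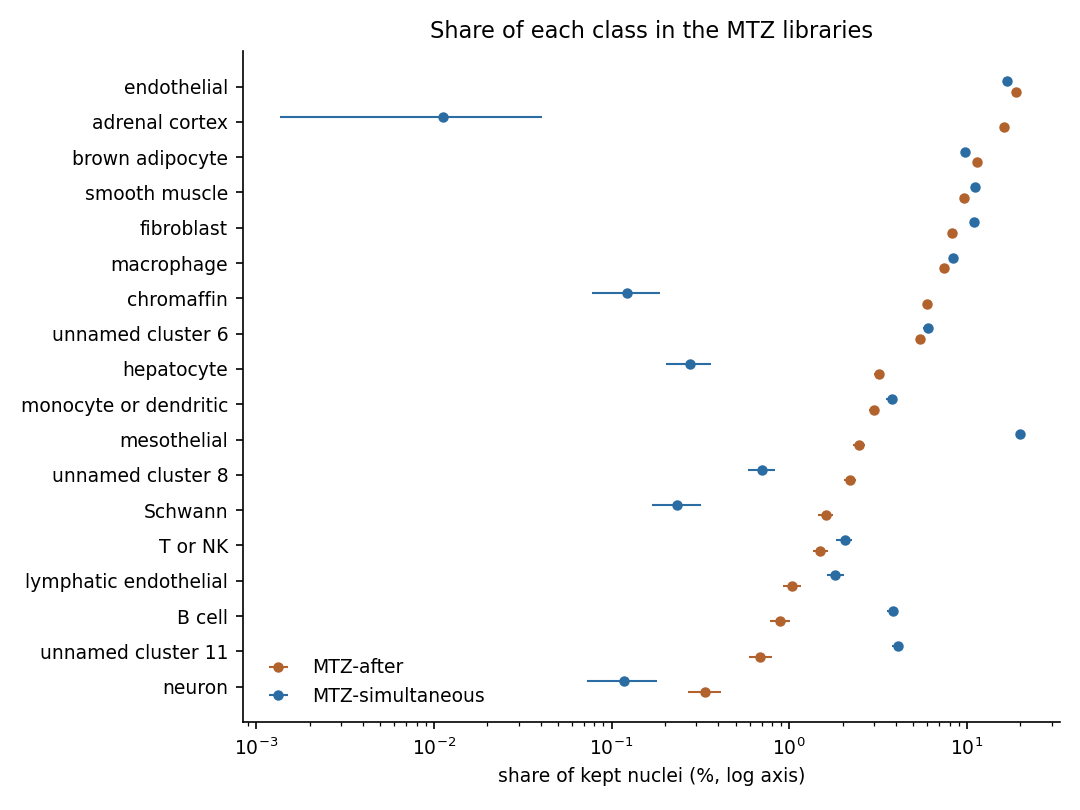
Share of kept nuclei (%, log axis) in each named class or unnamed cluster with at least 50 nuclei over both libraries, MTZ-after in brown and MTZ-simultaneous in blue. Bars are exact 95% binomial intervals. Endothelial, smooth muscle, fibroblast and macrophage shares lie close together, while adrenal cortex (16.2% against 0.0112%) and mesothelial nuclei (2.46% against 20%) lie apart.

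Within classes the mix of clusters also differed. Cluster 5, the macrophage cluster led by Ctsl, Cd5l and Gpnmb, was 14.1% of MTZ-after macrophages and 30.6% of MTZ-simultaneous macrophages, against 66.8% in the untreated and 16.1% in the high-fat library. Cluster 9, led by St18, Mmp12 and Atp6v0d2, held the other macrophages. Cluster 14, an endothelial cluster led by Fam155a, Nfasc and Sele, was 13% of MTZ-after and 29.8% of MTZ-simultaneous endothelial nuclei. Most of the remaining endothelial nuclei were in cluster 7. Cluster 19, with Btnl9, Gpihbp1 and Pcdh17 among its leading genes, was 5.25% of MTZ-after and 1.66% of MTZ-simultaneous endothelial nuclei. With 50 nuclei in MTZ-simultaneous it was not compared alone. Cluster 20, a fibroblast cluster led by Cemip, Mmp13, Grem1 and Tnc, was 14.1% and 15.7% of fibroblasts, and cluster 13 held the rest. Values by cluster are given below for the genes and lists where a cluster departed from its class.

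Calls rest on CPM from counts summed over the nuclei of a class, and needed a 2-fold difference with at least 50 counts in the library with the higher level. Of 9975 genes tested in smooth muscle, 177 (1.77%) were called higher in MTZ-simultaneous and 271 (2.72%) lower. In fibroblasts 163 of 9688 genes were higher (1.68%) and 241 lower (2.49%). In endothelial nuclei 148 of 11234 were higher (1.32%) and 644 lower (5.73%). In macrophages 119 of 8772 were higher (1.36%) and 201 lower (2.29%). Over all nuclei 2.36% of 16470 genes were called higher and 9.46% lower. The called genes were 484 higher and 799 lower in at least 1 of these 4 classes, and 14 higher and 88 lower in all 4. Median log2 ratios over all genes with at least 10 counts lay between -0.03 and 0.07 over the classes, so the list medians below can be read against a level near 0.

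Genes of cells other than the class itself differed between the libraries in the same direction across classes. Ppbp, a platelet chemokine, was lower in 10 of 10 classes, with ratios of 0.0378 to 0.140. A list of 8 platelet genes, chosen after the values were seen, summed to 111 to 148 CPM over the classes of MTZ-after and 22.7 to 50.5 CPM in MTZ-simultaneous. Genes of adrenal cortex summed to 134 to 208 CPM and 19.0 to 37.8 CPM in 8 classes that should lack them. In mesothelial nuclei they summed to 197 and 57.9 CPM, and in lymphatic endothelial nuclei the 8 adrenal cortex markers summed to 63.6 and 12.8 CPM. In the other direction, mesothelial genes summed to 39.4 to 69.8 CPM and 95 to 170 CPM. Haemoglobin genes went from 509 to 1162 CPM over all nuclei. A list of 13 kidney tubule genes, also chosen after the values were seen, went from 11.8 to 85.1 CPM over all nuclei, a ratio of 7.23 (6.47 to 8.11). Of these sums Lrp2, also a leading gene of the mesothelial cluster, made up 5.03 and 35.4 CPM. The list was at 97.9 and 175 CPM in mesothelial nuclei and at 5.29 and 70.5 CPM in smooth muscle. The part of the mesothelial share in the ratio over all nuclei was not tested. These lists moved in the same direction in every class compared, and their part in any single call was not tested.

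Clock genes differed by their role. Per1, Per2 and Per3 and the output factors Dbp and Tef were higher in MTZ-simultaneous in all 10 classes compared, Hlf, another output factor, in 9 and Nr1d1, a repressor of Arntl, in 7. Arntl and Npas2, the activators, were lower in the wall classes other than macrophages. Over all nuclei Per1, a repressor of the clock, was at 26.5 CPM in MTZ-after and 67.9 CPM in MTZ-simultaneous, with 28.4 CPM in the untreated and 21.4 CPM in the high-fat library. Per2, its paralogue, was at 29.6 and 65.0 CPM, and Per3 at 63.3 and 129 CPM. Ciart, another repressor, went from 3.73 to 9.90 CPM. Arntl went from 51.7 to 22.3 CPM, against 96.2 and 58.1 CPM in the untreated and high-fat libraries. Npas2 went from 43.9 to 21.0 CPM. The hour at which tissue was taken is not given in the labels.

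The windows just upstream of 3 of these genes are shown because the clock's activators are known to bind E-boxes and the output factors Dbp, Tef and Hlf to bind D-boxes. They are the 250 bases before the start of the gene, from RefSeq on GRCm38.p6, read along the gene. Capitals mark CACGTG, which is its own reverse complement, and TTATGTAA, searched on both strands. Ciart lies on the minus strand at chr3:95882229-95882478, Per1 on the plus strand at chr11:69098699-69098948 and Per3 on the minus strand at chr4:151044666-151044915.
Ciart: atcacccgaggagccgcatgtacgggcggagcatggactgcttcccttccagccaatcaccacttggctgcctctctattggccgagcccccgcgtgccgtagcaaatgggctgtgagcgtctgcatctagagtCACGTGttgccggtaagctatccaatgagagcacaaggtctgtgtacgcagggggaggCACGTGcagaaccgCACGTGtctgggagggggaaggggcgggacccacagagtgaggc
Per1: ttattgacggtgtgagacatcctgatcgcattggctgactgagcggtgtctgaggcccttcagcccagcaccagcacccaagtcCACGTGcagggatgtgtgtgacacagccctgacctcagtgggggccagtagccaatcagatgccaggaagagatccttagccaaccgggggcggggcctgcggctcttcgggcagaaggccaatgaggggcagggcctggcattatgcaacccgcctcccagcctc
Per3: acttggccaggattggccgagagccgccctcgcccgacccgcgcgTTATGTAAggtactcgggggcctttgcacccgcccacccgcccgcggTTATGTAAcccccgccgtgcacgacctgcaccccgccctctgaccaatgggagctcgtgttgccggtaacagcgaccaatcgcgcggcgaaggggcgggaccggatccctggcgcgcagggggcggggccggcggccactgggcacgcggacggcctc
The Ciart window held 3 CACGTG, the Per1 window shown 1 and the Per3 window 2 TTATGTAA. Per1 has a further window, at chr11:69099902-69100151, which held neither. RefSeq windows were found for 16 of the 19 clock genes, and 5 of them (Bhlhe41, Ciart, Cry1, Per1 and Tef) held CACGTG in at least 1 window. CACGTG was present in 6.02% of 32851 windows of that length and TTATGTAA in 0.819%. A match describes these letters and shows no binding.

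Of 19 clock genes measured in smooth muscle, 13 were higher, 6 of them called, and 2 were called lower, with a median log2 ratio of 0.70. The called genes were Per1, Per2, Per3, Ciart, Cry1 and Tef in the first group and Arntl and Npas2 in the second. Per2 in smooth muscle was at 34.9 CPM in MTZ-after and 93.1 CPM in MTZ-simultaneous, a ratio of 2.67 (2.14 to 3.36). Arntl was at 49.0 and 19.2 CPM, a ratio of 0.393 (0.297 to 0.518), and Npas2 had a ratio of 0.360 (0.274 to 0.471). In fibroblasts Arntl had a ratio of 0.290 and Npas2 of 0.289. In endothelial nuclei they had ratios of 0.300 and 0.305, with Arntl at 0.265 in cluster 7 and 0.350 in cluster 14. Macrophages differed from this pattern. Arntl was at 41.6 and 43.5 CPM there, a ratio of 1.05 (0.794 to 1.38), and Npas2 had a ratio of 1.07, although Per1 rose from 22.2 to 46.6 CPM. In endothelial nuclei the list had 5 genes called higher and 2 lower, with a median of 0.47. In fibroblasts 2 were called in each direction, with a median of 0.45, and in macrophages 1 was called higher, with a median of 0.24. The median was 0.05 in cluster 20 alone, and T or NK nuclei had 8 genes higher and 9 lower, with a median of -0.05.

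**Figure D2:**
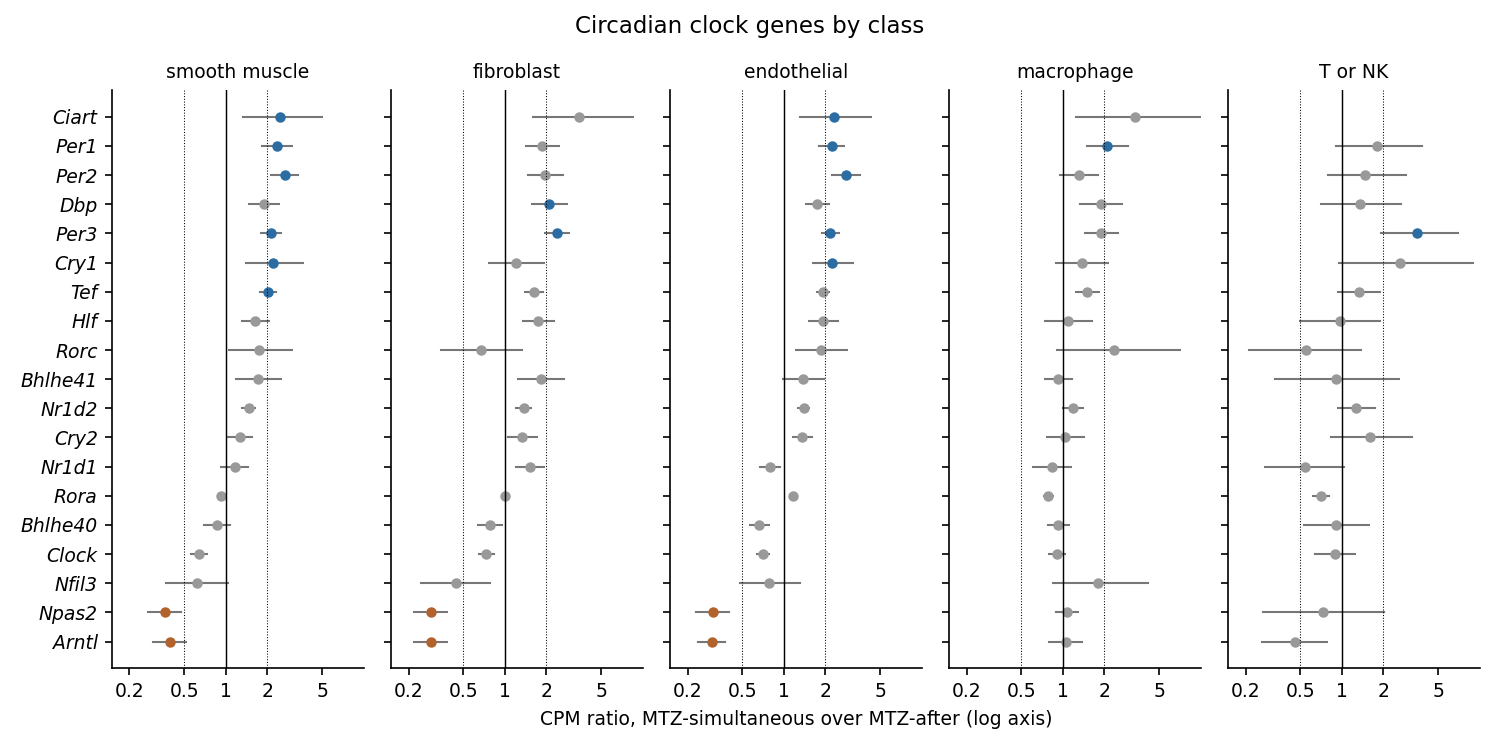
Ratio of CPM (MTZ-simultaneous over MTZ-after, log axis) of the clock genes in 5 classes, with 95% counting intervals as grey lines. Blue points are called higher and brown points called lower by the 2-fold rule, and dotted lines mark 0.5 and 2. Per genes lie to the right of 1 in every panel, and Arntl and Npas2 lie at 0.5 or below in smooth muscle, fibroblasts and endothelial nuclei but near 1 in macrophages.

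Smooth muscle nuclei of MTZ-simultaneous had more transcript of contractile genes. Of 20 contractile genes 18 were higher, 3 of them called, with a median log2 ratio of 0.61. All 12 markers that named the class are in this list. They summed to 5663 CPM in MTZ-after and 8358 CPM in MTZ-simultaneous, and their part in the result was not tested. The list summed to 7634 CPM in MTZ-after and 11250 CPM in MTZ-simultaneous, against 7329 CPM in the high-fat and 11686 CPM in the untreated library. Actg2, the enteric smooth muscle actin, rose from 78.2 to 235 CPM, a ratio of 3.01 (2.60 to 3.49), and lay at 53.9 CPM in the untreated library. The rise of Actg2 was not particular to smooth muscle. Actg2 was higher in 9 of the 9 classes in which it was measured and called in 5. Its ratio was 6.98 in T or NK nuclei and higher still in B cells, both above that in smooth muscle. Carmn, a long noncoding RNA of smooth muscle, rose from 271 to 581 CPM, a ratio of 2.14 (1.98 to 2.33). Cnn1, calponin, rose from 47.2 to 98.2 CPM. Myh11, the smooth muscle myosin heavy chain, was at 1143 and 1882 CPM, a ratio of 1.65 (1.58 to 1.71), and Acta2 at 714 and 1203 CPM. Mylk, the myosin light chain kinase, did not share this and was at 486 and 446 CPM. The 12 smooth muscle marker genes also summed to 1174 and 1565 CPM in T or NK nuclei, a class that should lack them, and the contractile list there had a median of 0.44. How much of the difference in smooth muscle nuclei is free RNA was not tested.

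**Figure D3:**
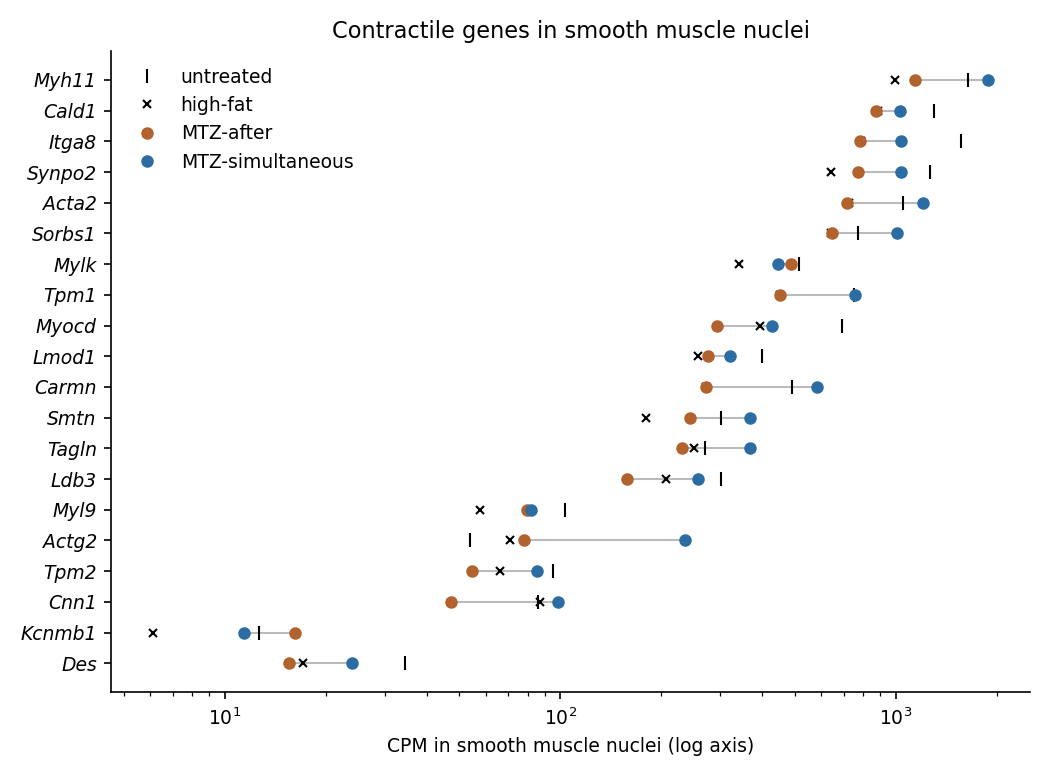
CPM (log axis) of the 20 contractile genes in smooth muscle nuclei, 1 point per library, with a grey line joining MTZ-after (brown) and MTZ-simultaneous (blue). Black bars are the untreated and crosses the high-fat library. MTZ-simultaneous lies to the right of MTZ-after for 18 genes, with Mylk and Kcnmb1 the exceptions.

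Complement genes in smooth muscle had 11 of 13 higher and 3 called, with a median of 0.52. The 21 measured genes of phenotypic modulation had a median of -0.02, with none called, and the 21 collagen and elastic fibre genes a median of -0.03. Col1a1, a chain of type I collagen, was at 245 and 125 CPM, and Klf4, a regulator of the modulated state, at 120 and 62.0 CPM. Neither passed the 2-fold rule. Outside the lists, Actn2, the sarcomeric alpha-actinin, rose from 10.6 to 51.0 CPM, a ratio of 4.82 (3.29 to 7.32), and lies on chromosome 13 at 12269426 to 12340760 (GRCm38). Actn2 was higher in 5 of the 7 classes in which it was measured and called in 2, with ratios from 0.826 to 19.6. Car3, a carbonic anhydrase known from muscle and fat, rose from 243 to 668 CPM and was higher in 10 of 10 classes. Among the genes called higher, Slc34a1 and Fut9 are in the kidney tubule list. Slc34a1, a phosphate transporter, had 60 counts against 2. Fut9 had 67 counts against 0, at least 14.2-fold higher against a floor of 3 counts. Pcdh17, a protocadherin, fell to 0.0535 of its MTZ-after level, Ntm to 0.211 and Lrrn3 to 0.181. Pcdh17 and Ntm were lower in 10 of 10 classes, and Lrrn3 in 8 of the 8 in which it was measured.

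Genes called higher in fibroblasts of MTZ-simultaneous included Saa3, Rarres2, C3 and C4b, while the inflammatory list had a median of 0.06 with none called. Saa3, which encodes an acute phase protein, rose from 2.48 to 21.0 CPM, a ratio of 8.46 (3.73 to 23.7). It was higher in 10 of 10 classes and called in 3. Rarres2, the chemoattractant chemerin, rose from 11.6 to 56.3 CPM, a ratio of 4.87 (3.28 to 7.50), and was higher in 10 of 10 classes. C3, the central complement component, rose from 91.7 to 200 CPM and C4b from 53.3 to 114 CPM. Of 13 complement genes 10 were higher and 2 called, with a median of 0.52 in the class, 0.67 in cluster 13 and -0.19 in cluster 20. C3 and C4b were also higher in 10 of 10 classes, and T or NK nuclei had a complement median of 1.20, with C3 at a ratio of 2.62. Col24a1, a fibrillar collagen, rose from 3.31 to 20.7 CPM, while the collagen and elastic fibre list as a whole had a median of -0.07 over 21 genes with none called. Of 13 proliferation genes 10 were higher and 3 called (Mki67, Top2a and Kif11), with a median of 0.58. Kif11 rose from 3.31 to 12.6 CPM. Of the 9 classes in which these 3 were measured, Mki67 was higher in 9, Top2a in 7 and Kif11 in 5. The 8 proliferation markers summed to 33.9 and 70.2 CPM in fibroblasts, and to 67.8 and 118 CPM in T or NK nuclei. Among genes that fell, Robo2, a guidance receptor, had a ratio of 0.204, with 0.160 in cluster 13 and 0.787 in cluster 20. Pde1c, a phosphodiesterase, had a ratio of 0.247 and Pnpla3, a lipase, of 0.229. Both were lower in 10 of 10 classes, called in 7 and 8, and Robo2 in 8 of the 8 in which it was measured.

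Spp1, osteopontin, fell in fibroblasts from 1629 to 631 CPM, with a different ratio in each cluster. In cluster 20 Spp1 was at 5881 CPM in MTZ-after and 685 CPM in MTZ-simultaneous, a ratio of 0.117 (0.106 to 0.128). In cluster 13 it was at 660 and 618 CPM. Of the 23 foam cell and lipid handling genes measured in cluster 20, 21 were lower, 8 of them called, with a median of -0.71, where 3.53% of its genes were called lower and 3.53% higher. They included Ctsb (623 to 247 CPM), Ctsl (379 to 180 CPM) and Cd36 (463 to 170 CPM), which macrophages also express. The 12 macrophage markers summed to 860 and 650 CPM in that cluster. Contractile genes moved the other way in cluster 20, where 17 of 19 were higher and 7 called, with a median of 0.79. Myh11 rose there from 218 to 533 CPM and Tagln from 95.7 to 201 CPM.

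Macrophages of MTZ-simultaneous had less Spp1 as well. Spp1 fell from 6357 to 2662 CPM, a ratio of 0.419 (0.407 to 0.430), against 5602 CPM in the untreated and 4873 CPM in the high-fat library. It fell in cluster 5 from 12401 to 3228 CPM, a ratio of 0.260 (0.252 to 0.269), in a cluster where 2.39% of genes were called higher and 0.708% lower. It was at 3787 and 1905 CPM in cluster 9. In T or NK nuclei Spp1 was at 798 and 823 CPM, a ratio of 1.03 (0.892 to 1.19). Ctsl, a lysosomal protease, was at 1699 and 986 CPM and passed the 2-fold rule in cluster 5, where it went from 3325 to 1278 CPM. Ctsb, its relative, was at 1874 and 1406 CPM. Lgals3, galectin-3, was at 694 and 1010 CPM, and Gpnmb and the cholesterol exporter Abca1 had ratios of 1.09 and 1.11. Over the 23 measured members of the foam cell list the median was 0.06, and 12 were higher. Within the clusters it was lower, with a median of -0.14 in cluster 5 (17 of 23 lower) and -0.13 in cluster 9 (14 of 23 lower), and the share of cluster 5 differed between the libraries. The median changed sign in 8 of 13 settings, so the direction of the list was not settled.

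Among the genes that rose in macrophages were Hspa1a and Dusp2, while the immediate early and heat shock list there had 14 of 20 genes lower. Hspa1a, an inducible heat shock protein on chromosome 17 at 34969190 to 34972156, rose from 5.67 to 65.2 CPM, a ratio of 11.5 (6.44 to 22.6). The ratio was 26.6 in cluster 9 and 1.04 in cluster 5. Hspa1b, a near-identical copy whose reads may be split with Hspa1a, was lower in 8 of 10 classes and at 16.5 and 15.8 CPM in macrophages. Dusp2, a phosphatase of MAP kinases, rose from 3.78 to 29.3 CPM. Ccl7 and Cxcl2, chemokines for monocytes and neutrophils, rose from 14.2 to 28.7 and from 7.09 to 16.7 CPM, while the inflammatory list had a median of -0.05 over 18 genes. Taco1, a mitochondrial translation factor, rose from 68.1 to 215 CPM and was called higher in 10 of 10 classes. Lrrc4 fell to 0.291 of its MTZ-after level and Ntm to 0.157, and both were lower in 10 of 10 classes. Nrgn, which the platelet list holds, fell to 0.157.

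Endothelial nuclei had 644 genes called lower and 148 higher, and clusters 7 and 14 did not always move together. These counts depended on the grouping, with 218 lower and 290 higher under another random seed and 259 lower and 243 higher under the stricter filter. Kdr, the receptor for VEGF, fell from 76.3 to 29.8 CPM, a ratio of 0.391 (0.328 to 0.464). The flow response list had 5 of 12 genes higher and a median of -0.27, with Klf2 at 348 and 252 CPM and Nos3 at 265 and 337 CPM. Fbln5, an elastic fibre protein, was at 744 and 402 CPM, with ratios of 0.491 in cluster 7 and 0.419 in cluster 14. In cluster 7 1.13% of genes were called higher and 6.04% lower, and in cluster 14 3.09% and 1.83%. Zeb2, a transcription factor of mesenchymal transition, was at 1058 and 595 CPM. Ddah1, which breaks down an inhibitor of nitric oxide synthase, was at 83.5 and 162 CPM. Brinp1 rose from 5.69 to 32.6 CPM, a ratio of 5.73 (3.84 to 8.88), with 2.16 in cluster 7 and 5.43 in cluster 14. Atp2b2, a calcium pump, rose from 62.0 to 153 CPM, with a ratio of 3.24 in cluster 7 and 1.53 in cluster 14. Fam155a was called higher in the class (151 to 367 CPM) although its ratio was 0.648 in cluster 7 and 2.20 in cluster 14, with cluster 14 a larger part of the class in MTZ-simultaneous. Pcdh17 fell to 0.0760 of its MTZ-after level, and Peg10, an imprinted gene, to 0.0381. Pcdh17, also a leading gene of cluster 19, had ratios of 0.100 in cluster 7 and 0.0384 in cluster 14. It was lower in 10 of 10 classes. The part of cluster 19 in the class values of Kdr and Pcdh17 was not tested. The 12 endothelial markers summed to 7087 and 7894 CPM in endothelial nuclei and to 3849 and 3300 CPM in T or NK nuclei.

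Genes of early response were lower in MTZ-simultaneous in the wall classes. Of 20 immediate early and heat shock genes in endothelial nuclei, 19 were lower and 8 called, with a median of -0.76. The medians were -0.26 in smooth muscle, -0.32 in fibroblasts, -0.26 in macrophages and -0.42 in T or NK nuclei, with 3, 4, 0 and 2 genes called lower, where 1.39% of T or NK genes were. Fos, a transcription factor of early activation, was lower in 10 of 10 classes. In smooth muscle Fos fell from 349 to 121 CPM, with 203 CPM in the untreated and 184 CPM in the high-fat library. In endothelial nuclei Fos fell from 295 to 91.6 CPM, a ratio of 0.311 (0.283 to 0.341). Fosb fell there from 124 to 20.3 CPM and Dusp1 from 335 to 122 CPM. T or NK nuclei had Fos at 251 and 101 CPM. The MTZ-after library was thus above both libraries without the compound for Fos in smooth muscle.

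The interferon response list was lower as well. Of 17 genes measured in endothelial nuclei 16 were lower and 4 called, with a median of -0.65. The medians were -0.53 in fibroblasts, -0.41 in smooth muscle, -0.37 in macrophages and -0.48 in T or NK nuclei. Iigp1, an interferon-inducible GTPase, was lower in 10 of 10 classes and called in 8, with ratios from 0.269 to 0.542. In endothelial nuclei it fell from 349 to 128 CPM, with 117 CPM in the untreated and 247 CPM in the high-fat library. Rsad2, an antiviral enzyme, fell there from 29.9 to 6.27 CPM and Oas2 from 23.8 to 7.25 CPM. Genes of fatty acid synthesis were mostly lower in the wall classes. The lipogenesis list had a median of -0.64 in endothelial nuclei (3 called lower of 17), -0.44 in fibroblasts, -0.40 in macrophages, -0.16 in smooth muscle and -0.41 in T or NK nuclei. It had a median of 0.04 in lymphatic endothelial nuclei, and in an unnamed cluster with adipocyte markers 15 of 17 genes were higher, with a median of 0.34. Fasn, fatty acid synthase, fell in endothelial nuclei from 86.4 to 35.4 CPM and was lower in 10 of 10 classes, as were Scd1 and Gpam. Other members went the other way. Dgat1 and Srebf1 were higher in 10 of 10 classes and called higher in 5 and 1.

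**Figure D4:**
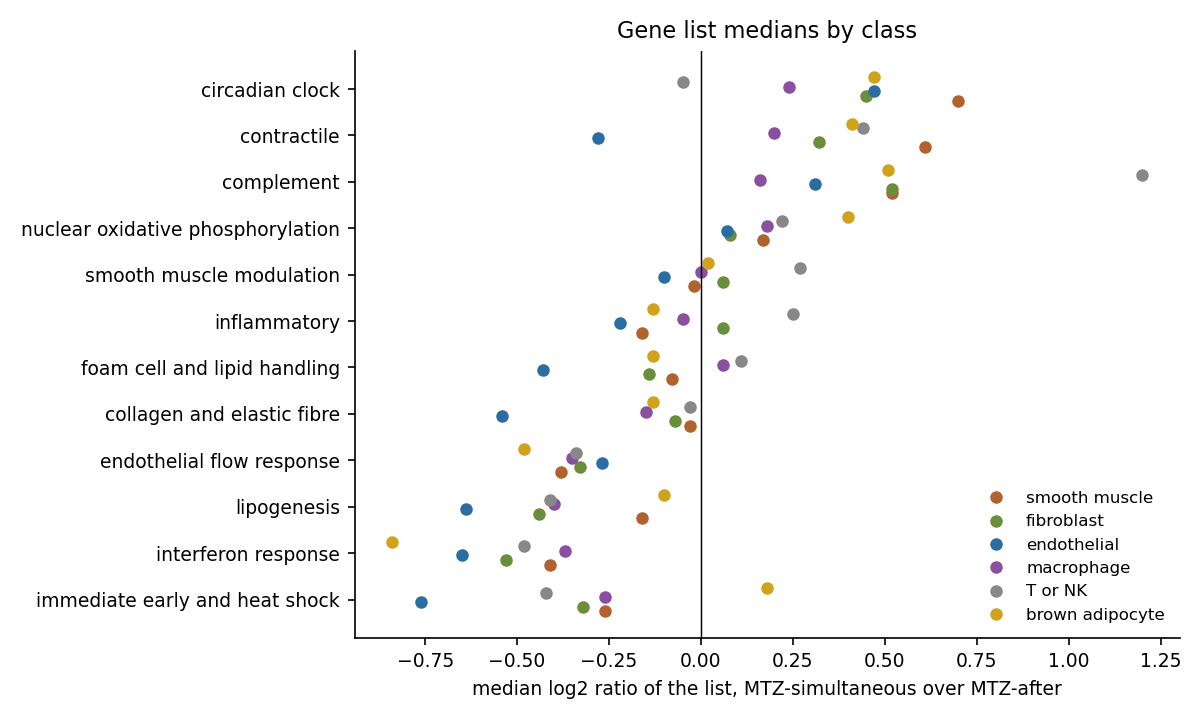
Median log2 ratio (MTZ-simultaneous over MTZ-after, CPM plus 1) of 12 gene lists, 1 point per class. Clock and complement medians lie mostly to the right of 0. Among the 6 classes shown, the contractile median is highest in smooth muscle, and the interferon list lies to the left in all 6. Brown adipocytes stand apart in the immediate early list (0.18).

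Brown adipocytes, which surround the aorta, showed higher levels of thermogenic genes in MTZ-simultaneous. In this class 2.43% of 9540 genes were called higher and 4.08% lower. Of 16 brown fat genes 13 were higher, 4 called, with a median of 0.51. Dio2, the deiodinase that activates thyroid hormone, rose from 12.5 to 121 CPM, a ratio of 9.70 (7.08 to 13.6), and was at 47.9 CPM in the untreated library. Ppargc1a, a coactivator of mitochondrial genes, rose from 332 to 1045 CPM, a ratio of 3.15 (2.95 to 3.37), and was at 1125 CPM in the untreated library. Gk, glycerol kinase, rose 2.45-fold and Ppara 2.12-fold. Ucp1, the uncoupling protein, was at 344 and 537 CPM and did not pass the 2-fold rule, and Elovl3 fell from 16.2 to 2.56 CPM. Of 20 nuclear genes of oxidative phosphorylation 18 were higher, none called, with a median of 0.40. All 8 markers that named the class, Dio2 and Ppargc1a among them, are in the brown fat list. They summed to 1760 and 3252 CPM, and their part in the result was not tested.

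Single genes differed in immune and lining cells of MTZ-simultaneous, some of them in the same direction in every class compared. In T or NK nuclei, where 2.18% of genes were called higher, Ccl5, a chemokine of effector lymphocytes, rose from 15.7 to 95.7 CPM on 56 counts against 6. In monocytes and dendritic cells 2.27% of genes were called higher and 1.95% lower. There S100a8 and S100a9, calcium-binding proteins of neutrophils and monocytes, rose from 2.69 to 75.7 and from 6.72 to 105 CPM. They had 2 and 5 counts in MTZ-after. The 6 neutrophil markers, which include both genes, summed to 148 and 381 CPM in this class. Cdh2, N-cadherin, fell to 0.142 and was lower in 10 of 10 classes. In B cells, where 5.50% of 5131 genes were called higher and 0.156% lower, Taco1 rose from 27.7 to 174 CPM on 6 counts in MTZ-after, and Fos fell to 0.342. In lymphatic endothelial nuclei, where 3.33% of genes were called higher and 1.01% lower, Hs3st4, a sulfotransferase, had 165 counts against 0, at least 23.6-fold higher against a floor of 3 counts. In mesothelial nuclei 5.92% of genes were called higher and 0.473% lower. Retnla, a product of alternatively activated cells, rose there from 8.64 to 106 CPM on 6 counts in MTZ-after. Gbp6, an interferon-inducible GTPase, fell to 0.192. Neither was particular to this class. Retnla was higher in 10 of 10 classes and called in 7, and Gbp6 lower in 10 of 10 and called in 5.

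Car1, the mouse gene for CA1, was higher in MTZ-simultaneous in all 10 classes compared, called in 8, with ratios from 1.35 to 3.74. Over all nuclei Car1 was at 63.5 CPM in MTZ-after (1857 counts) and 151 CPM in MTZ-simultaneous (5389 counts), a ratio of 2.38 (2.26 to 2.51), against 128 CPM in the untreated and 86.1 CPM in the high-fat library. In smooth muscle it rose from 69.8 to 142 CPM, in fibroblasts from 55.4 to 135 CPM, in endothelial nuclei from 86.0 to 186 CPM and in macrophages from 60.5 to 129 CPM. T or NK nuclei had 67.8 and 140 CPM and B cells 64.6 and 119 CPM. With every nucleus thinned to 500 UMIs, 3.98% of MTZ-after and 9.78% of MTZ-simultaneous endothelial nuclei had a Car1 UMI, and 3.32% and 7.95% of T or NK nuclei. Unthinned, those shares were 7.40% and 28.3%, and 6.14% and 18.4%. Haemoglobin genes were higher in the same 10 classes, by 1.56-fold to 2.44-fold, and which part of the Car1 UMIs came from red blood cells or free RNA was not tested. Whether these counts also hold transcripts of the knockin cannot be told from the labels.

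**Figure D5:**
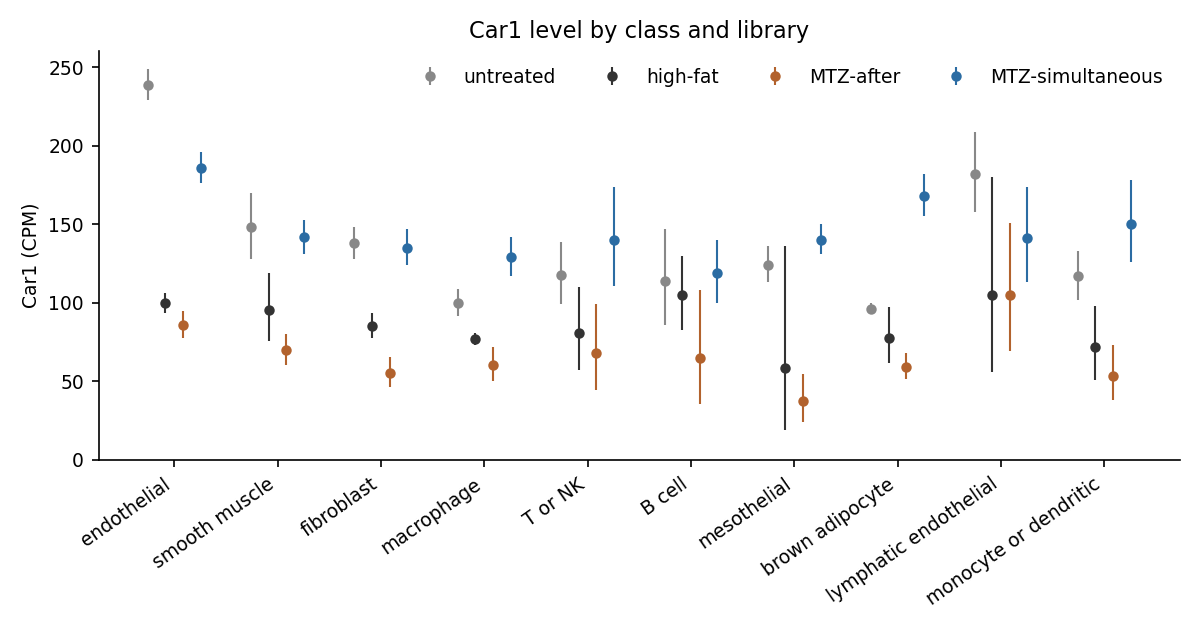
Car1 level (CPM, axis from 0) in 10 classes, 1 point per library, with exact 95% Poisson intervals. MTZ-simultaneous (blue) lies above MTZ-after (brown) in every class, with endothelial nuclei at 86.0 and 186 CPM, and the untreated library (grey) lies above both in endothelial nuclei.

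Among the other carbonic anhydrases Car3 rose in smooth muscle, with a ratio of 2.75 (2.53 to 2.99). The rise was not particular to smooth muscle. Car3 was higher in 10 of 10 classes and called in 3, with ratios from 1.12 to 3.22. Car3 was at 252 and 311 CPM in fibroblasts, 187 and 209 CPM in endothelial nuclei and 196 and 303 CPM in macrophages, none past the 2-fold rule. Car8, which has lost the enzyme activity, was at 179 and 316 CPM in endothelial nuclei, a ratio of 1.76 (1.63 to 1.91), and had ratios of 1.03 in smooth muscle, 1.12 in fibroblasts and 0.939 in macrophages. Car5b, a mitochondrial form, had ratios of 1.42 in endothelial nuclei, 1.14 in smooth muscle, 0.967 in fibroblasts and 1.03 in macrophages. Over all nuclei Car10 fell to 0.244 and Car14 to 0.353 of their MTZ-after levels, which rest on 74 and 79 counts. The genes of bicarbonate and proton transport had medians between -0.24 and 0.05 in the 4 wall classes.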

How the data were processed

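Single nuclei from aortic tissue were profiled in 4 libraries, 1 for each of 4 groups, with the 10x 3' v3.1 kit, per the labels' protocols. The authors deposited raw UMI counts for 32285 genes per barcode, made with Cell Ranger 7.0.1 per the file headers, on mm10 per the submitters' processing notes. No column of another series was present.

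Barcodes needed at least 300 genes and at most 10% mitochondrial UMIs. Scrublet in scanpy 1.11.5 found almost no doublets by its automatic threshold (0 to 0.00519% of barcodes), so nuclei scoring above the bound of the highest 8% were removed, which with tied scores was 7.01% to 7.66% of each library. Counts were scaled to 10000 UMIs per nucleus, and 2000 variable genes, 30 components and 20 neighbours gave 23 Leiden clusters at resolution 1. Clusters took a name from marker lists. UMI counts were summed per class and library and given as CPM. Ratios have exact conditional 95% intervals, levels exact Poisson intervals and shares exact Clopper-Pearson intervals, all for counting error only. A call needs a 2-fold ratio and at least 50 counts in the library with the higher level. List medians use log2 of CPM plus 1 over members with at least 10 counts, and a ratio against 0 counts uses a floor of 3 counts. Calls were tested on simulated counts.

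Named genes were, in smooth muscle, fibroblasts, endothelial nuclei and macrophages, the 4 highest and 4 lowest called genes by the interval bound nearest to 1, 2 and 2 in other classes with at least 200 nuclei in both libraries, up to 4 members of each list by the same bound, and all carbonic anhydrases that passed the count minimum. A gene needed at least 25% of its highest class level, and mitochondrial, ribosomal, haemoglobin, antibody, sex-linked and unnamed models were left out. Other genes named were chosen after their values were seen, and the members and lists were chosen with earlier results of these data known. Gene positions are from GENCODE vM21, which held 99.6% of the gene identifiers.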

Additional observations from a re-analysis of the deposited data

Results flagged for a closer look

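Hspa1a, an inducible heat shock protein, was far higher in MTZ-simultaneous than in MTZ-after in macrophages (ratio 11.5) and lower in endothelial nuclei (ratio 0.484), so the same contrast had opposite directions in 2 classes. The difference between the classes was not tested, since each side is 1 library. In macrophages the level went from 5.67 to 65.2 CPM, and the ratio was 26.6 in cluster 9 and 1.04 in cluster 5.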

How the results depend on the processing

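Depth, dissected tissue and 1 library a side limit every value. The medians of the clock, immediate early, interferon and lipogenesis lists and the Car1 ratios kept their direction in the settings run on smooth muscle, fibroblasts, endothelial nuclei and macrophages, as did the contractile median in smooth muscle (0.25 to 0.67). The clock median fell to 0.01 in macrophages and 0.05 in fibroblasts at its lowest, near the all-gene medians of 0.01 and 0.02. Other classes were not rerun. The foam cell list in macrophages changed sign in 8 of 13 settings. A planned doublet alternative (the bound of the highest 8% of scores in all libraries) turned out identical to the reported setting. No paired analysis was possible because each group has 1 library.

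Share ratios at resolution 2 were 1.42 for smooth muscle, 1.15 for endothelial nuclei and 1.36 for macrophages. With another random seed they were 1.20 for fibroblasts, 2.94 for endothelial nuclei and 1.23 for macrophages, with 290 genes higher and 218 lower in endothelial nuclei. With at least 500 genes and at most 5% mitochondrial UMIs they were 1.27 (smooth muscle), 1.79 (fibroblast) and 1.68 (endothelial), with 243 higher and 259 lower endothelial genes. With doublets kept they were 0.998, 1.13, 0.838 and 1.76 for smooth muscle, fibroblasts, endothelial nuclei and macrophages, with 70 macrophage genes lower. With each library centred they were 1.07 (smooth muscle) and 1.31 (endothelial), with 232 endothelial genes higher. With scores above the bound of the highest 15% removed, chosen after seeing the data, they were 1.21 (fibroblast) and 2.38 (macrophage), with 39 macrophage genes lower. With the 2 MTZ libraries clustered alone they were 1.69 (smooth muscle) and 1.90 (endothelial), with 263 higher and 371 lower endothelial genes and 319 lower macrophage genes. Without surrounding tissue they were 1.00, 1.15, 0.781 and 0.973 in that order.

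Counts of called genes (higher and lower) thinned to 500 UMIs were 73 and 136 in smooth muscle, 76 and 101 in fibroblasts, 79 and 303 in endothelial nuclei and 35 and 81 in macrophages. With no minimum count they were 1012 and 1946, 1039 and 1829, 737 and 2842, and 850 and 1837. With equal weight per nucleus, 268, 242 and 184 genes were higher in smooth muscle, endothelial nuclei and macrophages. By cluster, chosen after seeing the data, cluster 14 had 258 higher and 153 lower, cluster 20 had 127 lower and cluster 5 had 46 lower. Fam155a reversed to 0.648 in cluster 7 alone. Median-ratio scaling shifted log2 ratios by at most 0.01. The cause of these changes was not tested, apart from the fewer counts of thinning and of single clusters.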

Other observations

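Genes of sterol synthesis that respond to cell cholesterol were lower in MTZ-simultaneous. Insig1, which holds back the sterol-sensing transcription factors, was lower in 10 of 10 classes and called lower in 4, with ratios from 0.191 to 0.659. In endothelial nuclei Insig1 fell from 34.2 to 16.2 CPM and Hmgcs1, an early enzyme of the pathway, from 47.2 to 23.6 CPM. The whole list of 19 measured genes had a median of -0.32 in endothelial nuclei and of -0.04 in smooth muscle. Eno1, a glycolytic enzyme, was higher in 10 of 10 classes and called in 4, and rose in macrophages from 10.9 to 34.7 CPM, while the glycolysis and hypoxia list there had a median of 0.00 over 19 genes. Mitochondrial mt-Nd6 fell in macrophages from 256 to 96.4 CPM. It was lower in 10 of 10 classes and called lower in 7, with ratios from 0.296 to 0.595.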
